A study of Mus musculus with 16 samples.

Results

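The genes described here are 37 genes of cholesterol synthesis, sensing, uptake, storage and efflux in mouse liver, chosen by gene symbol, out of 53465 genes in the count table. All 37 passed the filter on low counts, which kept 14998 genes for testing. They were grouped by role into 19 synthesis enzymes, 4 sterol sensing genes, 5 genes of uptake and intracellular transport, 3 of esterification and 6 of efflux. Liver RNA came from 16 C57BL/6 mice aged 29 to 30 weeks, 4 per group, and every mouse had been on its diet for 16 weeks before 8 further weeks of treatment. HFD_PFOA mice received the high-fat diet and PFOA (perfluorooctanoic acid, a persistent fluorinated surfactant), CD_PFOA mice the control diet and PFOA, HFD_vehicle mice the high-fat diet and vehicle, and CD_vehicle mice the control diet and vehicle. All groups share the strain, and the 16-week feeding was meant to give fatty or normal livers before exposure. The sources used here do not state the sex of the mice, the PFOA dose or the composition of the diets.

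Cells make cholesterol from acetyl-CoA through mevalonate, isoprenoids, squalene and lanosterol. When membranes are low in sterol, SCAP escorts the transcription factor SREBP-2 (gene Srebf2) to the Golgi for cleavage, and the released fragment raises transcription of the synthesis enzymes. When sterol is plentiful, INSIG proteins hold SCAP in the endoplasmic reticulum and oxysterols activate the nuclear receptors LXRα and LXRβ (Nr1h3, Nr1h2), which raise efflux transporters such as Abca1, Abcg1, Abcg5 and Abcg8. The liver is the main organ that exports cholesterol, as lipoprotein, free sterol in bile or bile acid.

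The libraries held 14456524 to 25778125 counts. Levels are given as CPM, reads counted for a gene per 1000000 after TMM scaling. CPM is not corrected for gene length and is compared only between libraries for 1 gene. Differences are log2 fold changes with their standard error (SE) from 1 edgeR quasi-likelihood fit over all 16 libraries, and a gene is called higher or lower at a Benjamini-Hochberg adjusted p under 0.05 over the 14998 genes tested. The hepatocyte markers Alb, Apoa1, Ttr and Fabp1 together took 50141 to 122070 CPM per library, and none was at 0 in any library. In the library CD_vehicle 4 the 7 B cell markers summed to 646 CPM, against 18.4 to 68.6 CPM in the other 15 libraries. The hepatocyte markers summed to 83553 CPM in CD_vehicle 1, against 117556 to 122070 CPM in the rest of its group. Over all genes tested, CD_vehicle 1 also differed most from its group mates. In bulk RNA, fewer cells of a type and less RNA per cell cannot be told apart. CD_vehicle 4 and CD_vehicle 1 also stood at opposite ends of their group for the synthesis genes, as described next. For genes compared with CD_vehicle, 12 calls under PFOA in CD and 24 with HFD in vehicle, 10 and 23 stayed without CD_vehicle 1, 12 and 24 without CD_vehicle 4, and 10 and 24 without both. The calls lost were those of Nr1h2, Nr1h3 and Lcat, and the largest shift of a called log2 fold change was 1.45, for Sqle, against 0.49 for the next gene in the same fit.

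The synthesis enzymes were highest in CD_vehicle livers and lowest in HFD_vehicle livers, with both PFOA groups between them. Of the 19 group means, 17 were highest in CD_vehicle and 17 were lowest in HFD_vehicle. For each library, the median over the 19 genes of log2(CPM + 0.5) minus the gene's mean over all libraries gives the level of the arm. It was -0.13, -0.07, -0.12 and -0.16 in HFD_PFOA livers, -0.10, 0.30, 0.45 and 0.29 in CD_PFOA livers, -0.37, -0.72, -0.80 and -0.60 in HFD_vehicle livers, and -0.26, 0.54, 0.67 and 1.23 in CD_vehicle livers. The 4 HFD_PFOA libraries lay close together and above all 4 HFD_vehicle libraries, while the CD_vehicle libraries covered the whole span of the PFOA groups. CD_vehicle 4 had the highest level of its group for 17 of the 19 enzymes and CD_vehicle 1 the lowest for 16. The median within-group SD on this log2 scale was 0.13 for the synthesis genes in HFD_PFOA, 0.29 in CD_PFOA, 0.17 in HFD_vehicle and 0.72 in CD_vehicle, and over all genes tested it was 0.21, 0.23, 0.20 and 0.29 in the same groups.

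**Figure D1:**
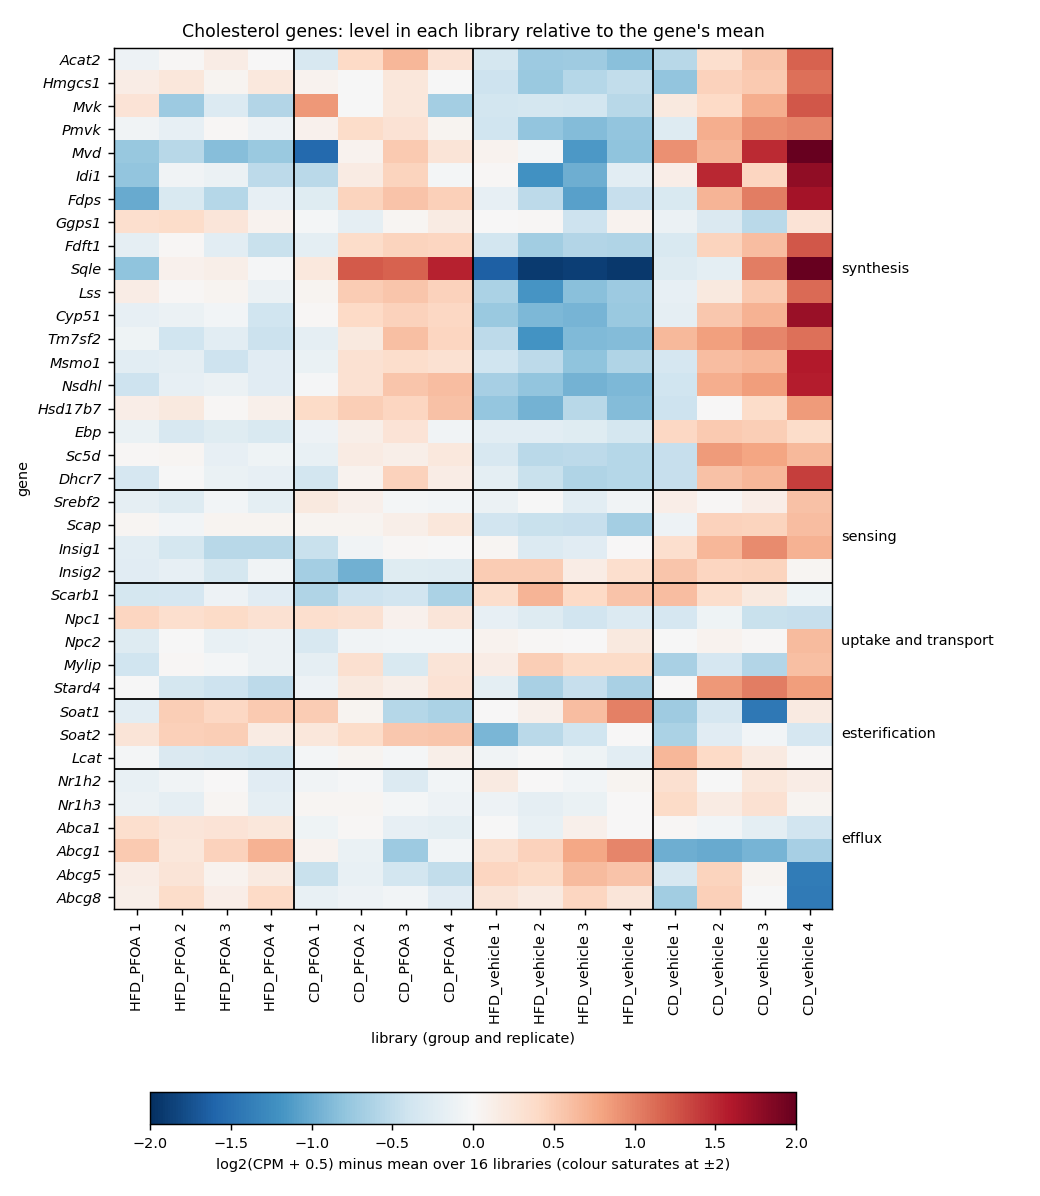
Level of each of the 37 genes (rows, by role) in each of the 16 libraries (columns, by group), as log2(CPM + 0.5) minus the gene's mean over the 16 libraries; the colour saturates at ±2. Most synthesis rows are low in the 4 HFD_vehicle columns and high in CD_vehicle 2, 3 and 4, whereas CD_vehicle 1 is low.

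**Figure D2:**
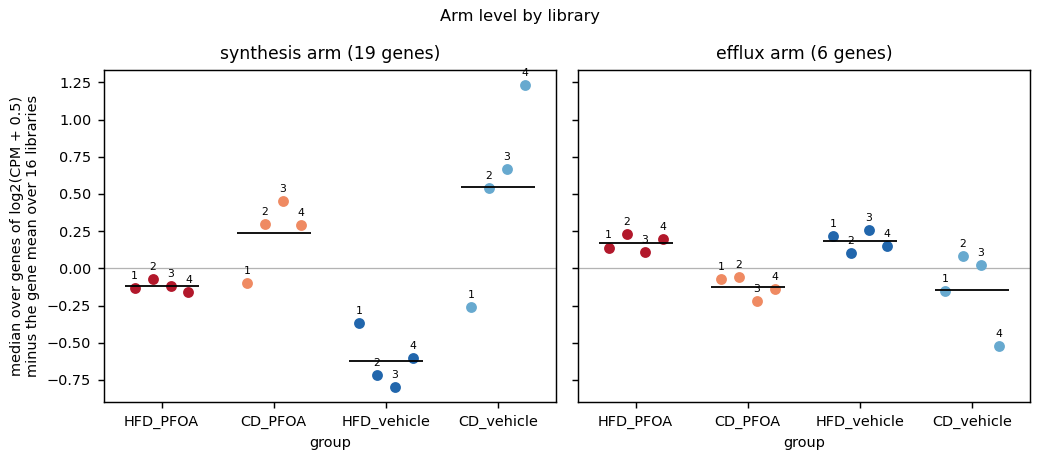
Level of the synthesis arm (left, 19 genes) and the efflux arm (right, 6 genes) in each library, as the median over genes of log2(CPM + 0.5) minus the gene's mean over 16 libraries; points are libraries with their replicate number and lines are group means. Synthesis is lowest in HFD_vehicle, and its widest spread is in CD_vehicle, from -0.26 to 1.23.

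Promoter sequences of 4 synthesis enzymes described below are shown first. Hmgcs1 makes HMG-CoA at the head of the mevalonate route, and Lss closes squalene epoxide into lanosterol. Tm7sf2 is a sterol reductase and Hsd17b7 a sterol ketoreductase. Each window runs from 250 bases before to 50 bases after the RefSeq start site, read 5′ to 3′ on the gene's strand, in build GRCm38.p6. Capitals mark CCAAT, or ATTGG where it lies on the other strand, and the sterol regulatory element searched as TCACNCCAC. Both strands were searched and the capitals of these motifs share no letters.
Hmgcs1 (chr13:119690101-119690400, plus strand): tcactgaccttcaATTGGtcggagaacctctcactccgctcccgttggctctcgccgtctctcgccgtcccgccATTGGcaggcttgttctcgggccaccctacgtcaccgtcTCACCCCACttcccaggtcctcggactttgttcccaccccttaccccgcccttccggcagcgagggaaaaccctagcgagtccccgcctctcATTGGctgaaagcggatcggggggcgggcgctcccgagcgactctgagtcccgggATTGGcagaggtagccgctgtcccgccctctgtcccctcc
Lss (chr10:76531355-76531654, plus strand): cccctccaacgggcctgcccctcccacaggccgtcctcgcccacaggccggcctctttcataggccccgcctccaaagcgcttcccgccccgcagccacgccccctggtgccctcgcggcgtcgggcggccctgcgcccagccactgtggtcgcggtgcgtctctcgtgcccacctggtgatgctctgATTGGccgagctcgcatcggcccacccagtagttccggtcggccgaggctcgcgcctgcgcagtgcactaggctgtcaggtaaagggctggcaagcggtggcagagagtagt
Tm7sf2 (chr19:6067801-6068100, minus strand): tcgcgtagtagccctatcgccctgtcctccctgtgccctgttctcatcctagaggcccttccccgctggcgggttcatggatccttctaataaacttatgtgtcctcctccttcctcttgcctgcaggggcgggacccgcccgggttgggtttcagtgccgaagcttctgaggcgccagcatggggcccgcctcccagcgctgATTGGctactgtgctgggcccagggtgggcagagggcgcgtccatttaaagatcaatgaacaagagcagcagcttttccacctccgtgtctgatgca
Hsd17b7 (chr1:169969156-169969455, minus strand): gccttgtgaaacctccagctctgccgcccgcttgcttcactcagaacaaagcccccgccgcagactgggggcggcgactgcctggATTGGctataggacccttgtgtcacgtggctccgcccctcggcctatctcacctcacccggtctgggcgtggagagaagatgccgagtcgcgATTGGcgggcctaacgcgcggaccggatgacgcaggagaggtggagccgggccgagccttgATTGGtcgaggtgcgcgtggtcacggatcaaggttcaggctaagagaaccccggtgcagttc

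Of the 37 genes, 29 had such a window, among them 16 of the 19 synthesis enzymes. Sqle, Fdft1, Fdps, Stard4, Scarb1, Npc1, Soat2 and Abcg1 had none, so no motif was searched in them. Some genes had several windows, 37 for the 29 genes and 19 for the 16 enzymes. A CCAAT match lay in 24 of these 37 windows and 15 of these 19, against 37.4% of all 32851 promoter windows. GGGCGG, the GC box, was in 25 of the 37 windows and 15 of the 19, against 35.7% of all windows. Counted by gene, 15 of the 16 enzymes held CCAAT and 14 held GGGCGG in at least 1 window, against 41.1% and 38.2% of all genes with a window. Hmgcs1 alone among the 29 genes matched TCACNCCAC, at 137 bases before its start site, and 1.24% of all windows held that motif. Hmgcs1 was not among the called genes with the smallest adjusted p in any comparison. The LXR direct repeat, a pair of AGGTCA with 4 bases between them, was in no window of the 29 genes and in 0.0152% of all windows. A match describes the letters in the window and is neither a bound site nor a cause, and no match says only that these letters are not in this window.

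In livers without PFOA, 18 of the 19 synthesis enzymes were lower in HFD_vehicle than in CD_vehicle by edgeR's quasi-likelihood test. Ggps1, which makes the geranylgeranyl diphosphate of protein prenylation, was the one enzyme not called (log2 fold change 0.08, adjusted p 0.853 by edgeR). Over the whole set, 23 of 37 genes fell and 1 rose, where 5.21% of all genes tested were called lower, 5.19% higher and 10.4% either way. The median log2 fold change of the 19 enzymes was -1.35, against -0.03 over all genes tested. All 11 enzymes of the sterol part, from Fdft1 to Dhcr7, fell, as did 7 of 8 of the mevalonate part. In 13 of the 19 the 4 HFD_vehicle values all lay below the 4 CD_vehicle values, against 7.21% of all genes tested. Among the 37, 19 genes were wholly lower and 1 wholly higher, where 7.25% of all genes tested were wholly higher. Scaling by library totals in place of TMM moved the median of all genes to 0.19 and the calls to 2052 higher and 288 lower (779 and 782 with TMM), and left 18 synthesis enzymes lower and none higher.

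Tm7sf2 (chromosome 19, 6062821 to 6068373, minus strand, positions in GENCODE M21 on GRCm38) had the smallest adjusted p of the 37 in this comparison. Its level was 37, 29.5, 33.6 and 28.9 CPM in HFD_PFOA livers, 34.7, 44.8, 60.0 and 53.2 CPM in CD_PFOA livers, 27.1, 16.9, 20.9 and 21.2 CPM in HFD_vehicle livers, and 61.6, 69.5, 77.9 and 84.9 CPM in CD_vehicle livers. All 4 HFD_vehicle values were under every other group's lowest, and all 4 CD_vehicle values were above every other group's highest. HFD_vehicle was 3.41-fold lower than CD_vehicle (log2 -1.77 ± 0.16 SE, adjusted p 4.54e-06 by edgeR). Tm7sf2 overlaps Vps51 on the annotation, and reads of overlapping genes cannot be told apart by strand in these unstranded libraries.

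Pmvk, the phosphomevalonate kinase (chromosome 3, 89454541 to 89469013), had 28.3, 26.3, 30.1 and 27.5 CPM in HFD_PFOA livers, 31.6, 38.2, 36.3 and 30.8 CPM in CD_PFOA livers, 22.2, 16.9, 16.0 and 17.0 CPM in HFD_vehicle livers, and 24.7, 49.6, 56.9 and 58.7 CPM in CD_vehicle livers. CD_vehicle 1 was the low library of its group and still above all 4 HFD_vehicle livers. HFD_vehicle fell to 2.62-fold below CD_vehicle (log2 -1.39 ± 0.19 SE, edgeR adjusted p 0.000205). Ebp, the sterol isomerase (chromosome X, 8185329 to 8193512), varied little within groups, with 178, 156, 163 and 157 CPM in HFD_PFOA livers, 181, 211, 235.9 and 185 CPM in CD_PFOA livers, 167, 168, 163 and 152 CPM in HFD_vehicle livers, and 258, 279.8, 272 and 250.1 CPM in CD_vehicle livers. Its CD_vehicle values stood above all other libraries and had a coefficient of variation of 5.04%, against 128% for Sqle in the same livers. HFD_vehicle was 1.63-fold lower than CD_vehicle (log2 -0.70 ± 0.09 SE, edgeR adjusted p 0.000125).

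Sqle, the squalene epoxidase that makes the first oxygen-requiring step, is given after its values were seen because 1 library set its size. It had 7.79, 14.8, 15.2 and 13.7 CPM in HFD_PFOA livers, 16.2, 33.3, 32.3 and 41.6 CPM in CD_PFOA livers, 4.17, 3.32, 3.40 and 3.29 CPM in HFD_vehicle livers, and 11.6, 12.1, 28.7 and 137 CPM in CD_vehicle livers. HFD_vehicle was the lowest group throughout, and CD_vehicle 4 stood far above its 3 group mates. The log2 fold change of HFD_vehicle over CD_vehicle was -3.74 ± 0.63 SE with all libraries (edgeR adjusted p 0.00092) and -2.29 without CD_vehicle 4 (edgeR adjusted p 0.000102). For the 19 enzymes together, the median log2 fold change in this comparison was -1.0 without CD_vehicle 4, -1.51 at the other end of the range over 8 single left-out libraries, and 17 or 18 enzymes were called in each of these fits. The call of Mvk, the mevalonate kinase, was lost without HFD_vehicle 4 (edgeR adjusted p 0.0664). That of Idi1, the isopentenyl diphosphate isomerase, was lost without HFD_vehicle 2, HFD_vehicle 3 or CD_vehicle 2 (edgeR adjusted p 0.0573 to 0.062). A fit of the HFD_vehicle and CD_vehicle libraries alone called neither Idi1 nor Hmgcs1 (edgeR adjusted p 0.0684 for Hmgcs1). Without both CD_vehicle 1 and CD_vehicle 4, a fit chosen after seeing the data, 18 synthesis enzymes and 26 of the 37 genes were called, where 14.8% of all genes tested in that fit were.

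Mean levels of the other enzymes lower in HFD_vehicle than in CD_vehicle ran from Idi1, at 0.567 against 2.80 CPM, to Sc5d, the sterol C5 desaturase, at 423 against 865 CPM. Acat2, the cytosolic acetyl-CoA acetyltransferase, averaged 26.6 CPM in HFD_vehicle livers and 59.7 CPM in CD_vehicle livers. Mvd, the mevalonate diphosphate decarboxylase, averaged 7.66 CPM in HFD_vehicle livers and 30.6 CPM in CD_vehicle livers. Cyp51, the lanosterol demethylase, averaged 47.2 CPM in HFD_vehicle livers and 152 CPM in CD_vehicle livers. Nsdhl, which acts in the same demethylation sequence, averaged 28.8 CPM in HFD_vehicle livers and 92.3 CPM in CD_vehicle livers. Log2 fold changes of the 18 called enzymes ran from -3.74 for Sqle to -0.70 for Ebp.

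PFOA in HFD livers was accompanied by higher synthesis transcripts. By edgeR, 6 of the 19 synthesis enzymes rose in HFD_PFOA over HFD_vehicle (Hmgcs1, Pmvk, Sqle, Lss, Tm7sf2 and Hsd17b7) and none fell at an unadjusted p under 0.05 or by DESeq2. Of the 37 genes, 10 rose and 2 fell, where 8.60% of all genes tested were called higher and 7.91% lower. The median log2 fold change of the 19 enzymes was 0.44, against 0.01 over all genes tested. It was positive for 18 of the 19, and for 7630 of the 14998 genes tested. Without HFD_vehicle 1, the highest library of its group for 15 of the 19, that median was 0.66. In 10 of the 19 all HFD_PFOA values lay above all HFD_vehicle values, against 12.9% of all genes tested. The groups did not overlap for 19 of the 37 genes, 14 higher and 5 lower, against 25.3% of all genes tested. HFD_vehicle serves as the comparison group here and as the high-fat group of the diet comparison, so its low level enters both with opposite sign and they are not independent.

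Lss (chromosome 10, 76531588 to 76557138) had 50.2, 46.2, 46.8 and 41.6 CPM in HFD_PFOA livers, 47.3, 64.5, 66.6 and 62.9 CPM in CD_PFOA livers, 29.1, 19.8, 25.2 and 27.1 CPM in HFD_vehicle livers, and 40.3, 51.8, 65.6 and 100.04 CPM in CD_vehicle livers. All HFD_vehicle livers lay below all others. HFD_PFOA was 1.82-fold higher than HFD_vehicle (log2 0.87 ± 0.20 SE, edgeR adjusted p 0.00438), and HFD_vehicle was 2.54-fold lower than CD_vehicle (log2 -1.35 ± 0.20 SE, edgeR adjusted p 0.00042). Hsd17b7 (chromosome 1, 169949535 to 169969241) had 56.0, 58.5, 52.2 and 55.0 CPM in HFD_PFOA livers, 66.6, 72.4, 69.2 and 77.3 CPM in CD_PFOA livers, 29.9, 26.2, 34.7 and 27.7 CPM in HFD_vehicle livers, and 38.4, 51.4, 66.3 and 92.9 CPM in CD_vehicle livers. It was the one synthesis enzyme with its highest group mean in CD_PFOA, and its 4 values there fell inside the wide CD_vehicle range. HFD_PFOA was 1.87-fold higher than HFD_vehicle (log2 0.91 ± 0.18 SE, edgeR adjusted p 0.00116). Tm7sf2 rose as well (log2 0.58 ± 0.16 SE, edgeR adjusted p 0.0157), a call lost without HFD_PFOA 1 or HFD_vehicle 2 (edgeR adjusted p 0.0545 to 0.0667).

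Calls of the other synthesis enzymes under PFOA in HFD were close to the threshold. Hmgcs1 had 267, 284, 249.7 and 280.4 CPM in HFD_PFOA livers, against 182, 145, 162 and 172 CPM in HFD_vehicle livers, with no overlap. Its log2 fold change was 0.71 ± 0.23 SE (edgeR adjusted p 0.0375), and the call was lost with any 1 of the 8 libraries left out (0.0564 to 0.109). Each gene has 1 dispersion over all 4 groups, so this SE also carries the CD_vehicle spread of Hmgcs1. The coefficient of variation of Hmgcs1 was 46.5% in CD_vehicle, 5.78% in HFD_PFOA and 9.62% in HFD_vehicle. Sqle had a log2 fold change of 1.85 ± 0.61 SE (edgeR adjusted p 0.0434) and lost its call without any 1 of 7 of the 8 libraries, HFD_PFOA 1 being the exception. The log2 fold change of Pmvk was 0.63 ± 0.19 SE (edgeR adjusted p 0.0258), a call lost without HFD_PFOA 1, HFD_PFOA 3, HFD_vehicle 2, HFD_vehicle 3 or HFD_vehicle 4. The number of synthesis enzymes called was 3 without HFD_PFOA 1, HFD_PFOA 3, HFD_vehicle 3 or HFD_vehicle 4, and 2 without HFD_vehicle 2. In a fit of the HFD_PFOA and HFD_vehicle libraries alone, 13 enzymes were called higher, where 12.1% of all genes tested in that fit were called higher. The number of the 37 genes called was 7 without HFD_vehicle 2, against 12 with all libraries and 22 in the fit of these 8 libraries alone. Of all genes tested, 13.0% were called without HFD_vehicle 2, against 24.4% in the fit of the 8 libraries alone.

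In CD livers no synthesis enzyme was called higher under PFOA. By edgeR, 3 of the 19 fell in CD_PFOA against CD_vehicle (Mvd, Tm7sf2 and Ebp), and none was higher at an unadjusted p under 0.05 or by DESeq2. Of the 37 genes, 3 rose and 9 fell, where 11.8% of all genes tested were called higher and 12.6% lower. The 19 enzymes had a median log2 fold change of -0.47, against 0.00 over all genes tested. It was negative for 17 of the 19, and for 7524 of the 14998 genes tested. CD_vehicle is the comparison group here and for HFD in vehicle, so its level enters both with the same sign and they are not independent. Groups did not overlap for the 3 called enzymes only, among the 19, against 11.6% of all genes tested with CD_PFOA wholly lower. Mvd averaged 10.3 ± 5.05 CPM in CD_PFOA livers and 30.6 ± 18.2 CPM in CD_vehicle livers (SD, n = 4 each; log2 -1.57 ± 0.39 SE, edgeR adjusted p 0.00565). Tm7sf2 was 1.53-fold lower (edgeR adjusted p 0.00698) and Ebp 1.30-fold lower (edgeR adjusted p 0.00357). These counts turned on CD_vehicle 1 and CD_vehicle 4. Without CD_vehicle 1, 13 of the 19 enzymes and 22 of the 37 genes were called, with a synthesis median of -0.68. Without CD_vehicle 4, 16 of the 37 genes were called and the median was -0.17. Without both, 9 enzymes and 20 genes were called. Of all genes tested, 22.1% were called without CD_vehicle 1, 25.8% without CD_vehicle 4 and 22.2% without both. Scaling by library totals moved the calls over all genes in this comparison to 2160 higher and 1376 lower, from 1763 and 1893 with TMM.

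Whether PFOA acted differently on each diet was tested as the difference of the log2 fold changes, PFOA in HFD minus PFOA in CD. All 19 synthesis enzymes had a positive difference, with a median of 0.90 against 0.02 over all genes tested, and 1 enzyme, Tm7sf2, passed the test. Of the 14998 genes tested, 7925 had a positive difference. The 19 enzymes were measured in the same 16 libraries, and most varied together in CD_vehicle 1 and CD_vehicle 4. Their signs, here and in the comparisons above, are therefore not independent observations. By edgeR, 0.207% of all genes tested were called, and 1 of the 37 genes was, while 20 of the 37 had an unadjusted p under 0.05. The 0.207% is at the adjusted threshold. No share of all genes is given at the unadjusted one, so the 20 has no background to be read against. Tm7sf2 moved in opposite directions on the diets, with a difference of 1.19 ± 0.22 SE (edgeR adjusted p 0.0341). Its call was lost without any 1 of 10 of the 16 libraries (edgeR adjusted p 0.0503 to 0.0832): each of the 4 HFD_PFOA libraries, CD_PFOA 2 and 4, HFD_vehicle 2, 3 and 4, and CD_vehicle 3. The count of enzymes called was 10 without CD_vehicle 1, 11 without both CD_vehicle 1 and 4, and 0 without any of those 10 libraries. Of the 37 genes, 12 were called without CD_vehicle 1 and 4 without CD_vehicle 4. Over all genes tested the called share was 0.688% without CD_vehicle 1, 2.29% without CD_vehicle 4 and 4.08% without both. The B cell markers of CD_vehicle 4 move with the high values of that library, and their part in the result was not tested.

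Under PFOA, no gene of the 37 was called between HFD_PFOA and CD_PFOA by edgeR. At an unadjusted p under 0.05 there were 14, 10 of them lower and 4 higher, and DESeq2 called 4, where it called 1.19% of all genes tested. No share of all genes is given at the unadjusted threshold, so the 14 has no background to be read against. Over all genes tested, 0.06% were called in this comparison, 0.0467% higher and 0.0133% lower. The synthesis median was -0.48, against 0.00 over all genes tested, and 7 of the 19 enzymes had all HFD_PFOA values below all CD_PFOA values, against 3.53% of all genes tested. The groups did not overlap for 12 of the 37 genes, 5 higher and 7 lower, against 7.68% of all genes tested, with 4.15% wholly higher. A fit of the HFD_PFOA and CD_PFOA libraries alone called 8 of the 37 genes and 0.924% of all genes tested in it. The plot of fold changes shows these estimates beside those of the other comparisons.

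**Figure D3:**
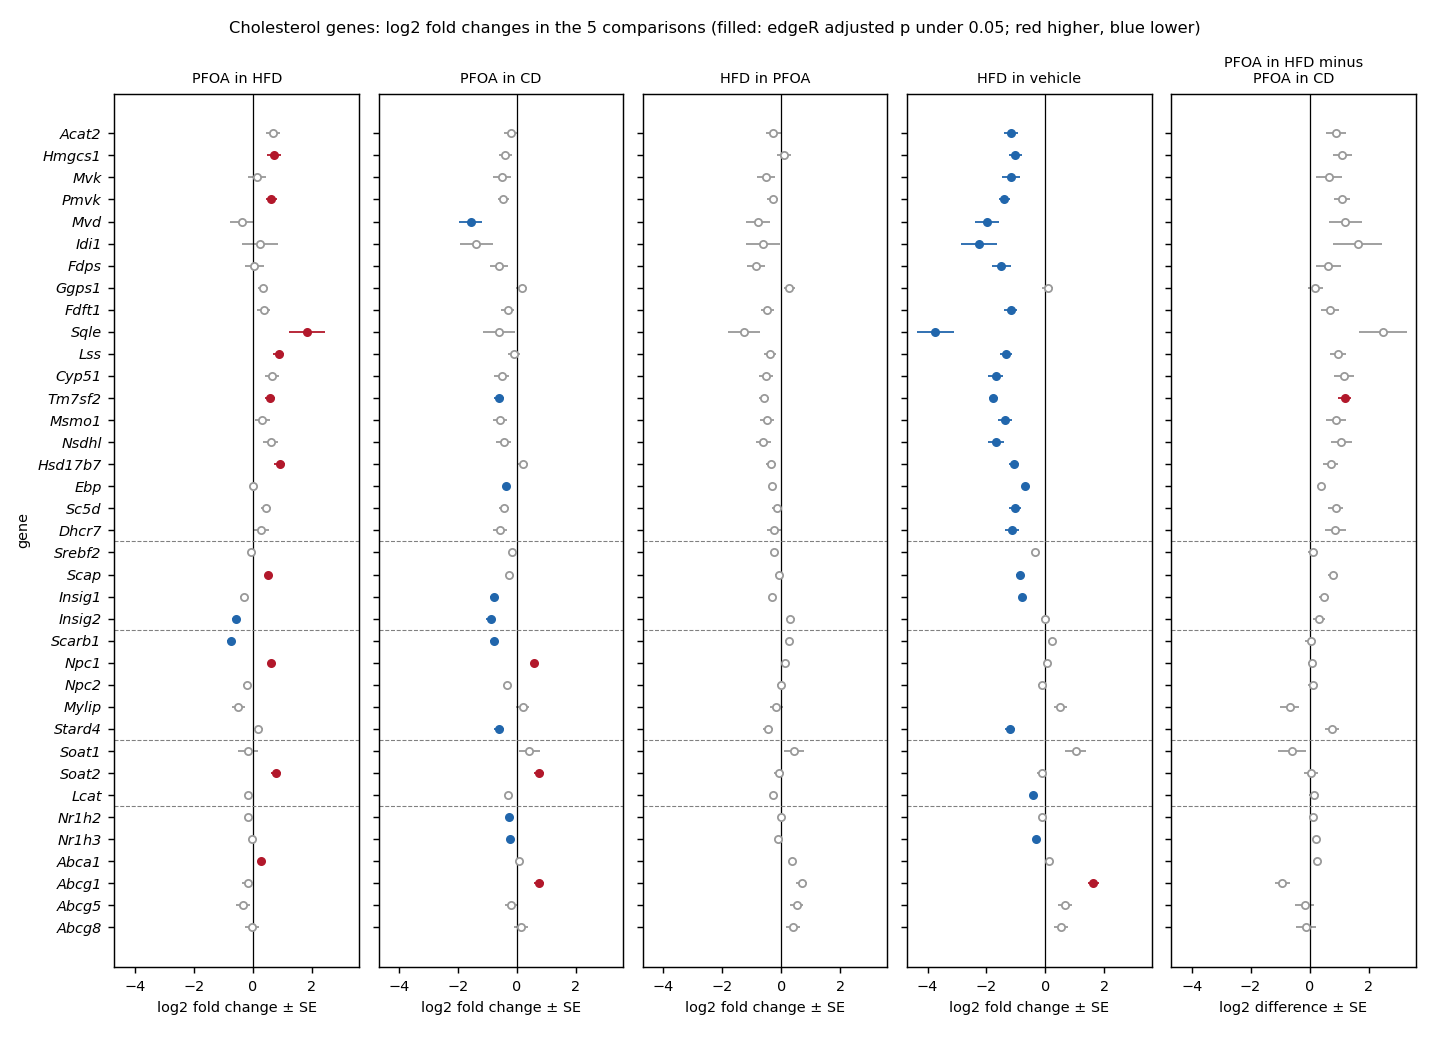
Log2 fold change ± SE of each of the 37 genes (rows, by role, separated by dashed lines) in the comparisons PFOA in HFD, PFOA in CD, HFD in PFOA, HFD in vehicle and the difference of the PFOA effects; filled points passed an edgeR adjusted p under 0.05, red higher and blue lower. HFD in vehicle has 18 filled blue points among the 19 synthesis enzymes, and HFD in PFOA has no filled point.

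Of the sterol sensing genes, Insig2 fell under PFOA on both diets, Insig1 fell under PFOA in CD and with HFD in vehicle, Scap fell with HFD in vehicle and rose under PFOA in HFD, and Srebf2 was not called in any comparison. Insig2 (chromosome 1, 121304353 to 121332589), whose product also retains SCAP, had 290.1, 304, 268 and 326 CPM in HFD_PFOA livers, 212, 175, 289 and 284 CPM in CD_PFOA livers, 485, 484, 379.9 and 430.2 CPM in HFD_vehicle livers, and 504, 460.0, 466 and 349 CPM in CD_vehicle livers. Every PFOA liver lay below every vehicle liver. The log2 fold change was -0.58 ± 0.14 SE in HFD livers (edgeR adjusted p 0.00758) and -0.89 ± 0.15 SE in CD livers (edgeR adjusted p 0.000132), and the difference between diets was 0.31 ± 0.20 SE (edgeR adjusted p 0.643).

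Insig1 (chromosome 5, 28071363 to 28078662), which is itself a target of SREBP-2, had 157, 142, 124 and 124 CPM in HFD_PFOA livers, 134, 173, 185 and 181 CPM in CD_PFOA livers, 187, 150.0, 155 and 183 CPM in HFD_vehicle livers, and 229.8, 289.7, 350.0 and 294 CPM in CD_vehicle livers. All CD_vehicle values were above all others. CD_PFOA was 1.73-fold lower than CD_vehicle (log2 -0.79 ± 0.13 SE, edgeR adjusted p 0.00014) and HFD_vehicle was 1.72-fold lower than CD_vehicle (edgeR adjusted p 0.000852). Both falls are against the same CD_vehicle livers and are not independent. In HFD livers the log2 fold change under PFOA was -0.30 ± 0.13 SE (edgeR adjusted p 0.125).

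Scap (chromosome 9, 110333288 to 110384950) had 72.1, 67.4, 73.2 and 72.9 CPM in HFD_PFOA livers, 72.6, 73.3, 76.5 and 81.8 CPM in CD_PFOA livers, 53.5, 51.4, 51.0 and 43.8 CPM in HFD_vehicle livers, and 65.3, 96.9, 95.3 and 108 CPM in CD_vehicle livers. HFD_vehicle was the low group, without overlap, and CD_vehicle 1 was again the lowest of CD_vehicle. HFD_PFOA was 1.43-fold higher than HFD_vehicle (log2 0.52 ± 0.12 SE, edgeR adjusted p 0.00391), and HFD_vehicle was 1.83-fold lower than CD_vehicle (log2 -0.87 ± 0.12 SE, edgeR adjusted p 0.000188). The difference of its PFOA effects was 0.78 ± 0.17 SE (edgeR adjusted p 0.0558). Srebf2 averaged 37.5 CPM in HFD_PFOA livers, 44.0 CPM in CD_PFOA livers, 39.3 CPM in HFD_vehicle livers and 49.9 CPM in CD_vehicle livers, and its log2 fold change of -0.34 with HFD in vehicle had an edgeR adjusted p of 0.053.

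**Figure D4:**
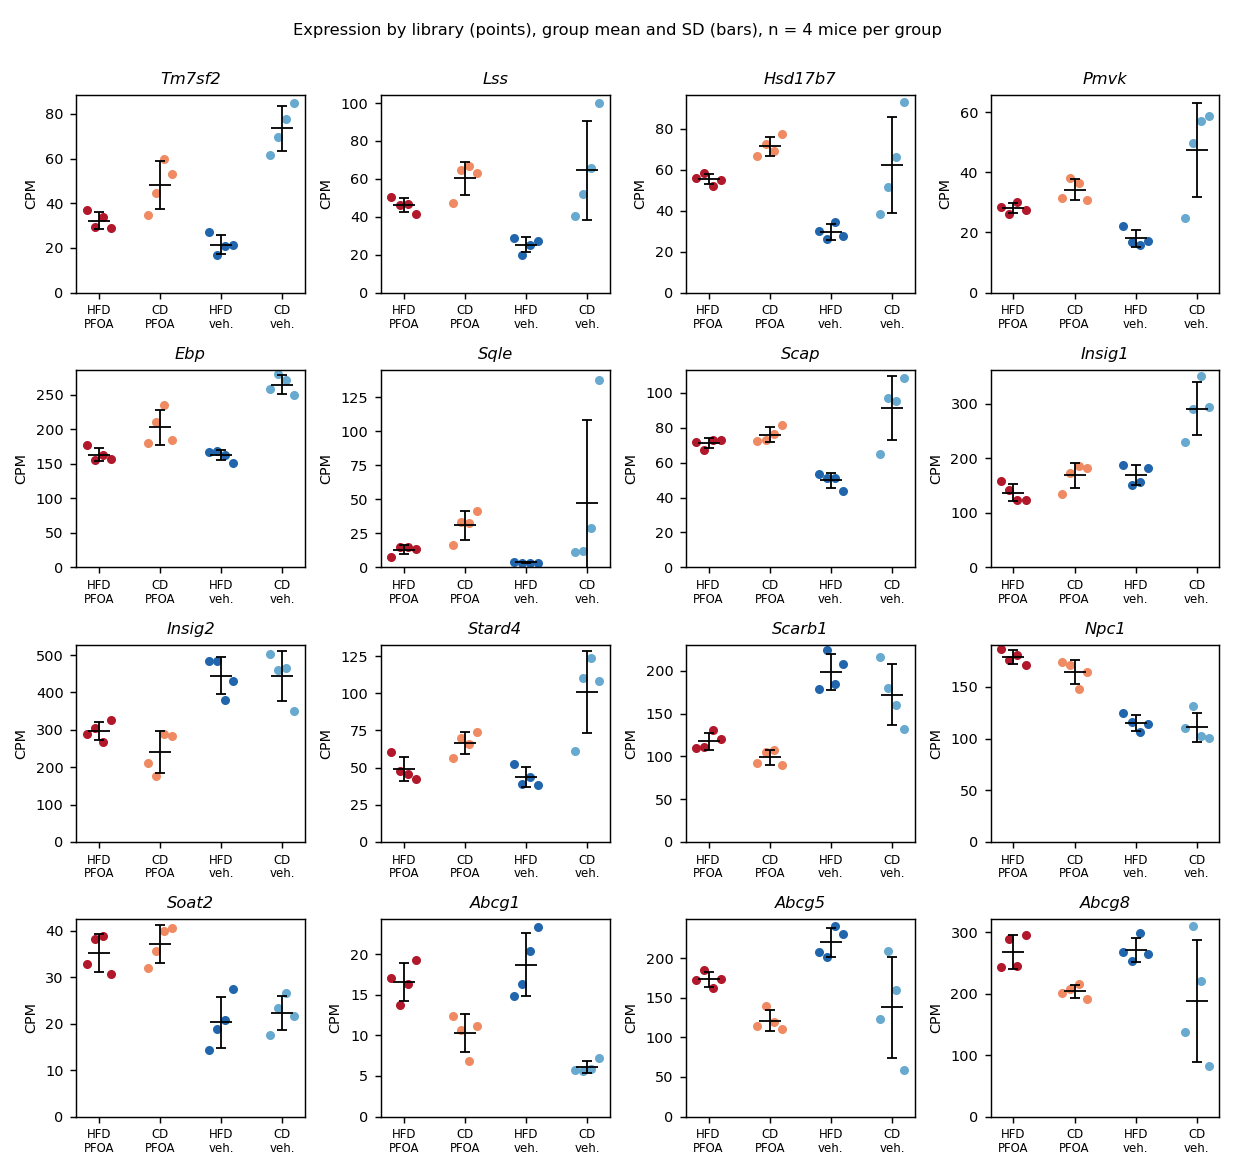
CPM of 16 genes in each library (points), with group mean and SD (bars, n = 4), groups in the order HFD_PFOA, CD_PFOA, HFD_vehicle and CD_vehicle; each vertical axis starts at 0, where the SD bar of Sqle in CD_vehicle is cut off. Scarb1 and Insig2 are lower, and Npc1 and Soat2 higher, in all 8 PFOA livers than in all 8 vehicle livers, and the Sqle mean in CD_vehicle rests on 1 library at 137 CPM.

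Among the uptake and transport genes, Scarb1 was lower and Npc1 higher under PFOA on both diets, and neither was called with HFD in vehicle or in PFOA livers. Scarb1 (chromosome 5, 125277087 to 125341094), the SR-BI receptor that takes cholesterol ester from HDL, had 109, 111, 130.4 and 120.3 CPM in HFD_PFOA livers, 92.2, 105, 108 and 90.5 CPM in CD_PFOA livers, 179, 224.1, 185 and 208 CPM in HFD_vehicle livers, and 217, 180.0, 160.2 and 132 CPM in CD_vehicle livers. The highest PFOA liver stood just below the lowest vehicle liver. Its fold was 1.69 lower in HFD livers (log2 -0.76 ± 0.12 SE, edgeR adjusted p 0.000198) and 1.74 lower in CD livers (log2 -0.80 ± 0.12 SE, edgeR adjusted p 7.7e-05). The difference between diets was 0.04 ± 0.18 SE (edgeR adjusted p 0.966).

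Npc1 (chromosome 18, 12189692 to 12236400), the membrane protein that moves cholesterol out of late endosomes, had 186, 176, 181 and 171 CPM in HFD_PFOA livers, 175, 171, 148 and 164 CPM in CD_PFOA livers, 124, 116, 106 and 115 CPM in HFD_vehicle livers, and 110.0, 131, 102 and 100.3 CPM in CD_vehicle livers. All PFOA livers exceeded all vehicle livers. It rose 1.55-fold in HFD livers (log2 0.63 ± 0.09 SE, edgeR adjusted p 5.09e-05) and 1.48-fold in CD livers (log2 0.57 ± 0.09 SE, edgeR adjusted p 0.000121), and the difference between diets was 0.07 ± 0.13 SE. Npc2, its soluble partner in the lysosome, was not called in any comparison, with log2 fold changes under PFOA of -0.21 ± 0.12 SE in HFD and -0.33 ± 0.12 SE in CD (edgeR adjusted p 0.27 and 0.057).

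Stard4 (chromosome 18, 33199355 to 33213862), a cytosolic sterol carrier and SREBP-2 target, had 60.4, 47.5, 45.5 and 42.1 CPM in HFD_PFOA livers, 56.4, 69.7, 65.7 and 74.0 CPM in CD_PFOA livers, 52.7, 38.7, 43.8 and 38.5 CPM in HFD_vehicle livers, and 61.1, 110.4, 123 and 108 CPM in CD_vehicle livers. It was ordered like the synthesis enzymes, with CD_vehicle 1 low in its group. HFD_vehicle was 2.32-fold lower than CD_vehicle (log2 -1.21 ± 0.17 SE, edgeR adjusted p 0.00028). CD_PFOA was 1.52-fold lower than CD_vehicle (edgeR adjusted p 0.0132), a call lost without CD_PFOA 1 or CD_vehicle 3 (0.0505 to 0.0542). Mylip, a ubiquitin ligase and LXR target that marks lipoprotein receptors for breakdown, was not called in any comparison.

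Soat2, the hepatocyte enzyme that makes cholesterol ester (chromosome 15, 102150526 to 102163469), rose under PFOA on both diets. It had 32.7, 38.3, 38.9 and 30.6 CPM in HFD_PFOA livers, 32.0, 35.6, 40.0 and 40.7 CPM in CD_PFOA livers, 14.3, 18.8, 20.7 and 27.4 CPM in HFD_vehicle livers, and 17.6, 23.4, 26.5 and 21.6 CPM in CD_vehicle livers. No PFOA value overlapped a vehicle value. The rise was 1.73-fold in HFD (log2 0.79 ± 0.16 SE, edgeR adjusted p 0.00166) and 1.67-fold in CD (log2 0.74 ± 0.16 SE, edgeR adjusted p 0.00209), and the difference between diets was 0.05 ± 0.23 SE. Soat1, the form common outside hepatocytes, was not called in any comparison. Lcat, which esterifies cholesterol on plasma HDL, was lower in HFD_vehicle than in CD_vehicle at 327 against 441 CPM (log2 -0.43 ± 0.11 SE, edgeR adjusted p 0.0202). The Lcat call was lost without HFD_vehicle 4, CD_vehicle 1 or CD_vehicle 2 (edgeR adjusted p 0.0502 to 0.0769) and with library totals.

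The 6 efflux genes did not all move the same way. Their arm level, computed as for synthesis, was 0.14, 0.23, 0.11 and 0.20 in HFD_PFOA livers and -0.07, -0.06, -0.22 and -0.14 in CD_PFOA livers. It was 0.22, 0.10, 0.26 and 0.15 in HFD_vehicle livers and -0.15, 0.08, 0.02 and -0.52 in CD_vehicle livers. Every high-fat library lay above every control-diet library. The 4 transporters were wholly higher in HFD_PFOA than in CD_PFOA, against 4.15% of all genes tested, though none was called. The median log2 fold change of all 6 efflux genes was -0.09 under PFOA in HFD and -0.07 under PFOA in CD. With HFD it was 0.38 in PFOA livers and 0.33 in vehicle livers. Over all genes tested these medians were 0.01, 0.00, 0.00 and -0.03. The -0.07 was 0.08 without CD_vehicle 2, -0.21 without CD_vehicle 4 and 0.03 with library totals. The 0.33 was 0.56 with library totals and 0.07 without both CD_vehicle 1 and CD_vehicle 4. Abcg1 was the efflux gene with the smallest adjusted p. Abcg1, a transporter that loads cholesterol onto HDL and is abundant in macrophages (chromosome 17, 31057675 to 31117988), had 17.0, 13.7, 16.3 and 19.3 CPM in HFD_PFOA livers, 12.3, 10.7, 6.87 and 11.2 CPM in CD_PFOA livers, 14.8, 16.3, 20.5 and 23.4 CPM in HFD_vehicle livers, and 5.71, 5.59, 5.90 and 7.18 CPM in CD_vehicle livers. The high-fat groups were above the control-diet groups without overlap. HFD_vehicle was 3.07-fold higher than CD_vehicle (log2 1.62 ± 0.19 SE, edgeR adjusted p 4.18e-05), and CD_PFOA was 1.68-fold higher than CD_vehicle (log2 0.75 ± 0.18 SE, edgeR adjusted p 0.00502). In HFD livers the log2 fold change under PFOA was -0.18 ± 0.18 SE (edgeR adjusted p 0.58), and the difference between diets, -0.93 ± 0.26 SE, had an edgeR adjusted p of 0.141.

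The 10 Kupffer cell and macrophage markers summed to 285 to 538 CPM in HFD_PFOA livers, 182 to 391 CPM in CD_PFOA livers, 426 to 526 CPM in HFD_vehicle livers and 229.8 to 444 CPM in CD_vehicle livers, with none at 0 in any library. With HFD in vehicle 4 of the 10 were called higher, with a median log2 fold change of 0.62, and their part in the Abcg1 result was not tested. Under PFOA in CD their median log2 fold change was 0.04, and their part in the Abcg1 result there was not tested either. The 6 cholangiocyte markers ran from 124 to 249 CPM in HFD_vehicle livers and 46.3 to 97.4 CPM in CD_vehicle livers, and 1 of them was called higher. Of the 4 hepatocyte markers, 3 were lower in HFD_vehicle than in CD_vehicle (70555 to 82468 CPM in sum against 83553 to 122070 CPM), and their part in the fall of the synthesis enzymes was not tested. Under PFOA, 3 of the 4 fell and Fabp1 rose on both diets. Their sums were 50141 to 62189 CPM in HFD_PFOA livers and 57420 to 73261 CPM in CD_PFOA livers, with median log2 fold changes of -0.45 in HFD and -0.70 in CD. Their part in the Scarb1 and Insig2 results on both diets and in the synthesis results under PFOA was not tested.

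Abca1, the transporter that starts HDL formation, was higher in HFD_PFOA than in HFD_vehicle at 333 against 273 CPM (log2 0.28 ± 0.09 SE, edgeR adjusted p 0.0379), a call lost without any 1 of 7 of the 8 libraries, HFD_vehicle 3 being the exception (0.0617 to 0.133). Nr1h3 and Nr1h2, the LXR genes, were 1.19-fold and 1.21-fold lower in CD_PFOA than in CD_vehicle (edgeR adjusted p 0.042 and 0.0366). Nr1h3 lost that call without any 1 CD_PFOA library, CD_vehicle 1 or CD_vehicle 3 (edgeR adjusted p up to 0.121), and Nr1h2 without CD_PFOA 1, 3 or 4 or CD_vehicle 1 or 3 (up to 0.112). Nr1h3 was also lower with HFD in vehicle (log2 -0.33 ± 0.09 SE, edgeR adjusted p 0.0198), a call lost without HFD_vehicle 2, HFD_vehicle 3 or CD_vehicle 3 (0.0551 to 0.0677).

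Abcg5 and Abcg8, which form 1 sterol transporter for bile and lie head to head on chromosome 17 (84658234 to 84683011 on the minus strand and 84676302 to 84700333 on the plus strand), were not called in any comparison and were chosen for per-library values after these were seen. Abcg5 had 172, 185, 162 and 174 CPM in HFD_PFOA livers, 114, 139.8, 120.1 and 110.2 CPM in CD_PFOA livers, 208, 202, 240.3 and 231 CPM in HFD_vehicle livers, and 124, 209.6, 160.0 and 58.2 CPM in CD_vehicle livers. Abcg8 had 243, 289, 246 and 295 CPM in HFD_PFOA livers, 202, 208, 215 and 191 CPM in CD_PFOA livers, 268, 253, 299 and 265 CPM in HFD_vehicle livers, and 138, 310.1, 220.98 and 83.1 CPM in CD_vehicle livers. CD_vehicle 4, which had the highest synthesis level, had the lowest level of both transporters, and CD_vehicle 2 the highest of its group. The annotated genes overlap, so their unstranded reads cannot be told apart in the shared stretch.

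Across the 5 comparisons, 30 of the 37 genes were called at least once, where 32.7% of all genes tested were, and 7 were not (Ggps1, Srebf2, Npc2, Mylip, Soat1, Abcg5 and Abcg8). Under PFOA, Npc1 and Soat2 rose and Scarb1 and Insig2 fell on both diets, Tm7sf2 was called in opposite directions, and 7 genes were called on each diet alone. Those rising and those falling on both diets were each 5.41% of the 37, near the shares of all genes tested. Of all genes tested, 6.1% rose and 5.73% fell on both diets, 0.0533% were called in opposite directions, 4.63% were called in HFD alone and 12.5% in CD alone. A call on one diet alone does not show that the effects differ, and the difference was called for Tm7sf2 only. Genes were also set beside each other per kilobase of exon, taken as all annotated exons of a gene joined. That length can exceed that of the expressed transcript, so the order is rough. Lcat was highest in CD_vehicle at 329 CPM per kb, ahead of Sc5d at 178, Insig2 at 128 and Ebp at 115 CPM per kb. Idi1 and Soat1 were the lowest, at 0.80 and 0.45 CPM per kb.

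Of 40 other genes of cholesterol and isoprenoid handling, listed by general knowledge, 9 rose and 5 fell under PFOA in HFD, 7 rose and 8 fell under PFOA in CD, 1 rose with HFD in PFOA livers, and 2 rose and 6 fell with HFD in vehicle. Of all genes tested, the called shares, higher and lower, were 8.60% and 7.91% for PFOA in HFD, 11.8% and 12.6% for PFOA in CD, 0.0467% and 0.0133% for HFD in PFOA livers, and 5.19% and 5.21% for HFD in vehicle. Pltp, the phospholipid transfer protein, rose under PFOA by 2.0 ± 0.20 SE on the log2 scale in HFD (142 against 35.5 CPM, edgeR adjusted p 6.65e-07) and by 1.41 ± 0.20 SE in CD. Lpcat3, a phospholipid acyltransferase and LXR target, rose by 1.39 ± 0.15 SE in HFD and 1.15 ± 0.15 SE in CD. Nceh1, a cholesterol ester hydrolase, rose by 1.32 ± 0.15 SE in HFD and by 1.72 ± 0.15 SE in CD (90.8 against 27.5 CPM, edgeR adjusted p 5.54e-08). Acat1, the mitochondrial acetyl-CoA acetyltransferase, rose by 0.75 ± 0.09 SE in HFD and by 0.88 ± 0.09 SE in CD.

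Gramd1b, which carries cholesterol from the plasma membrane to the endoplasmic reticulum, averaged 42.7 CPM in HFD_PFOA livers, 23.6 CPM in CD_PFOA livers, 21.7 CPM in HFD_vehicle livers and 6.75 CPM in CD_vehicle livers. It was called higher under PFOA on both diets and with HFD in both treatments. With HFD in PFOA livers its log2 fold change was 0.86 ± 0.14 SE (edgeR adjusted p 0.0221), and it was the only one of the 40 called there. Rdh11, a retinol dehydrogenase, and Erg28, named after a yeast scaffold of the sterol demethylation enzymes, fell with HFD in vehicle by 1.88 and 0.80 on the log2 scale (edgeR adjusted p 0.00016 and 0.00149). Neither was called under PFOA.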

How the data were processed

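The authors deposited raw counts per gene, whole numbers for 53465 genes in 16 libraries, and all 16 columns were used. Per the labels' protocols, RNA of flash-frozen liver was extracted with a Qiagen RNeasy kit and made into non-stranded libraries at BGI. The submitters' processing notes name STAR 2.5.2b, Subread 1.6.0 (featureCounts), Trimmomatic 0.33, bcl2fastq 2.20.0.422 and the build GRCm38, and the sources used here do not state the annotation release.

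Genes were filtered with filterByExpr, which kept 99.94% of counts, and scaled by TMM. One edgeR 4.0.16 quasi-likelihood fit (glmQLFit, glmQLFTest) took a mean per group over all 16 mice, leaving 12 residual degrees of freedom; the common dispersion was equal to a coefficient of variation of 0.242. Benjamini-Hochberg adjustment ran over the 14998 genes tested. The fit was checked on simulated counts. These had 1 dispersion for all genes and groups, so the check does not cover the wide CD_vehicle spread of the synthesis genes. SEs are the size of the log2 fold change over the root of F. Dispersion is estimated per gene over all 4 groups, so an SE is not the spread of the compared groups alone. Per the series' design text mice are biological replicates, and replicate numbers follow record order. Libraries of a group differed beyond sampling noise in every pair, with a chi-square of 8.56 to 154 times its degrees of freedom. Pairs with CD_vehicle 1 gave 136 to 154, and no other pair exceeded 59.5.

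The genes and lists were chosen with earlier results of these data known. Per-library values are given for up to 6 called genes per comparison by smallest adjusted p, and for up to 3 of the 40 related genes; Hmgcs1, Sqle, Abcg5 and Abcg8 were added after their values were seen. Alternatives were other scalings, filters and fits, DESeq2 1.42.0, and leaving out libraries. Gene positions are from GENCODE M21 and promoter windows from RefSeq, 29 of 37 genes matched. By that annotation 20 of the 37 genes overlap another gene, and reads were counted without strand.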

Additional observations from a re-analysis of the deposited data

Results flagged for a closer look

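Each of the 37 genes was screened in each group of 4 for a library far from the other 3, by the gap to its nearest neighbour over the group's range, against Dixon's 95% limit. Of 148 groups 10 were marked, in 8 genes, and chance marks about 1 in 20 groups. In CD_PFOA, library 1 was far below the others for Fdft1 at 39.0 CPM, Msmo1 at 54.6 CPM and Npc2 at 47.9 CPM. In CD_vehicle, library 4 was far above the others for Sqle at 137 CPM, Srebf2 at 63.8 CPM and Npc2 at 92.7 CPM. In HFD_vehicle, library 1 stood high for Pmvk at 22.2 CPM and for Sqle at 4.17 CPM, library 3 low for Ggps1 at 6.33 CPM and library 4 low for Mvk at 4.25 CPM. The remaining item is a difference between diets: the PFOA effect on Tm7sf2 was 1.19 higher on the log2 scale in HFD than in CD livers (edgeR adjusted p 0.0341). All 4 HFD_PFOA values of Tm7sf2 lay above all 4 HFD_vehicle values, and all 4 CD_PFOA values below all 4 CD_vehicle values.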

How the results depend on the processing

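No paired analysis was possible because the replicate numbers follow the order of the records and pair no mice across groups. Of 49 called gene results, 35 kept their side of the threshold under every alternative run; of 730 gene results under alternatives 646 did, 84 lost the call and 0 changed sign. With 1 library left out at a time, the number of the 37 genes called ran from 7 to 9 (PFOA in HFD), 9 to 22 (PFOA in CD), 22 to 27 (HFD in vehicle), 0 to 0 (HFD in PFOA) and 0 to 12 (difference of PFOA effects), and of synthesis enzymes from 2 to 4, 3 to 13, 17 to 18, 0 to 0 and 0 to 10. DESeq2 called 4 genes and 2 synthesis enzymes for HFD in PFOA, and 5 and 3 for the difference. It called 1.19% and 1.39% of all genes tested there. Without a filter on low counts, 10 synthesis enzymes were called for PFOA in HFD and 8 for PFOA in CD, 5 genes and 4 enzymes for HFD in PFOA, and 14 genes and 11 enzymes for the difference. Of all genes tested without that filter, 8.55% were called for PFOA in HFD and 12.2% for PFOA in CD. The shares were 0.805% for HFD in PFOA and 1.04% for the difference. Fits of only the 2 groups compared called 22 genes and 13 enzymes for PFOA in HFD, and 8 and 5 for HFD in PFOA. They called 24.4% and 0.924% of all genes tested in them. In the comparisons with CD_vehicle, fits of this kind lost 7 calls. These were Hmgcs1, Idi1, Lcat and Nr1h3 for HFD in vehicle, and Stard4, Nr1h2 and Nr1h3 for PFOA in CD. Without both CD_vehicle 1 and 4, 20 genes and 9 enzymes were called for PFOA in CD, and 15 and 11 for the difference. Of all genes tested, 22.2% and 4.08% were called there. The cause of these shifts was not tested. Library totals moved the median of all genes in the difference to -0.10 from 0.02 and its calls to 6 higher and 38 lower, from 10 and 21, and the calls for HFD in PFOA to 11 higher and 1 lower, from 7 and 2. Medians of the synthesis and efflux arms moved by less than the spread between replicates in 155 of 160 cases. That spread is wide where CD_vehicle takes part, so this count is a loose check. With 1 library left out, the synthesis median for PFOA in CD ran from -0.68 to -0.17.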
